A study of Mus musculus with 16 samples.

Results

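Enzymes of glycolysis and of the tricarboxylic acid (TCA) cycle were followed in the lumbar spinal cord of SOD1G93A and wild-type mice through 35 genes, 15 of glycolysis and 20 of the TCA cycle with the entry of pyruvate. They were found by name, as the probes of the array that are not controls and whose gene name is that of one of the 35, out of 27962 gene names on the array. The 35 genes have 68 of the 41174 probes, 14 of them a single probe and 21 several, up to 6 for Hk1. Of the 68 probes, 59 could be matched by accession to a RefSeq gene, with Pkm2 as the single older name (now Pkm). The Eno1 probe also lists the transcript of Eno1b, a near copy, and its values hold for both. All 35 genes had a probe bright enough to be tested at each age, 61 probes at 40 days and 62 at 80 days. Where a gene had several, the brightest one in the cord channel stands for it in the counts.

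The arrays compared male SOD1G93A mice 40 and 80 days old, both pre-symptomatic ages, with male non-transgenic wild-type mice of the same ages, 4 arrays for each of the 4 groups, each described as a biological replicate. SOD1G93A mice carry a human SOD1 transgene under its own promoter with a mutation found in familial amyotrophic lateral sclerosis, and mice of both genotypes were on a B6SJL background and came from 1 colony. Cord RNA was labelled with Cy3 and hybridised with a Cy5-labelled reference, RNA pooled from heart, kidney and liver of neonatal mice of both genotypes, so that each value below is a log2 ratio of cord to that reference. No array had the dyes exchanged. Whole lumbar cord holds neurons, glia and vessels together, and a lower value may stand for fewer cells of a type as well as for less RNA per cell, which cannot be told apart.

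Glycolysis splits glucose into pyruvate in the cytosol, and the phosphofructokinases (Pfkl, Pfkm, Pfkp), set by the regulatory enzymes Pfkfb2 and Pfkfb3, are its main control point. Pyruvate either becomes lactate through lactate dehydrogenase or enters the mitochondrion, where the pyruvate dehydrogenase complex turns it into the acetyl group that citrate synthase (Cs) feeds into the TCA cycle. Neurons draw most of their energy from the mitochondrial route, while astrocytes and oligodendrocytes are known to release lactate that neurons take up.

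Between 46.1% and 55.3% of the probes of an array were well above background in the cord channel, and 57.1% to 70.0% in the reference channel. On 3 arrays, wild-type 40 days replicate 3, SOD1G93A 40 days replicate 4 and SOD1G93A 80 days replicate 4, very bright local backgrounds were reset before the correction, 63 in the cord and 18 in the reference channel on the last of these and 3 to 5 a channel on the other two. The 4 arrays with a given replicate number lay on 1 slide, and the groups took the same place on every slide, so that place and group cannot be told apart. Skeletal muscle transcripts, foreign to the cord, were high on SOD1G93A 40 days replicate 2 (a median of 2.71 above the mean of all arrays over 8 muscle genes, log2) and to a lesser degree on wild-type 80 days replicate 1, SOD1G93A 80 days replicate 2 and SOD1G93A 80 days replicate 4 (0.72, 1.09 and 0.81), while the other arrays lay between -0.72 and 0.42. Of all probes 2.44% were higher and 2.03% lower in SOD1G93A mice at 40 days, and 3.74% and 3.12% at 80 days, at a p under 0.05. Astrocyte markers were higher at 40 days for 4 of 10 genes (Gfap, Slc1a3, Slc1a2 and S100b) and lower at 80 days for 1 of 10 (Slc1a2), and the genotype difference of the same 4 genes fell between the ages. Of the oligodendrocyte markers Mbp and Cldn11 were among those higher at 40 days, when 8 of 10 differences were positive. Mog and Cnp1 were higher at 80 days, when 6 of 10 were positive and Cldn11 was the lowest at -0.15. Microglial markers were higher for 2 of 11 at 40 days (C1qb and C1qc) and 0 of 11 at 80 days. The part of these cell types in the results below was not tested.

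A probe reads 60 bases of a transcript, and several results below turn on which stretch is read. The first 30 bases of the probes with a genotype change at 80 days in the genes' brightest probe are shown, with the place the files give them on the NCBI35 (mm7) mouse build, for Eno1 (chr4:149233567-149233792, plus strand, across an intron), Idh3a (chr9:54632887-54632946, plus), Idh3b (chr2:130021893-130021952, minus) and Ogdh (chr11:6307369-6307428, plus).
Eno1: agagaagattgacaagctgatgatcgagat
Idh3a: gtgctggttgtatttattgtccgtctggta
Idh3b: gtgcagaacccttaccagtttgatgtgctc
Ogdh: gaagagcacaagaaccaaggctactatgac

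A further 3 pairs of probes are shown because the members of a pair gave different genotype changes for the same gene: Pdha1 at chrX:154897095-154897154 (minus, the brighter probe) and chrX:154898033-154898092, Dlat at chr9:50613430-50613489 (minus, brighter) and chr9:50615095-50616055, and Pfkfb3 at chr2:11411110-11411169 (minus, brighter) and chr2:11429504-11431766. All 3 genes lie on the minus strand, so the second probe of each pair lies upstream of the first.
Pdha1, brighter probe: gtgtagaggtgtggatctttaaacaagagt
Pdha1, upstream probe: tgtgctctcaacttggacaggaaataccca
Dlat, brighter probe: aatatgcttgcttaccacaagggcacatca
Dlat, upstream probe: agcagataatgagaaaggctttgatgtggc
Pfkfb3, brighter probe: tggctttaattgttcattggttcggggcct
Pfkfb3, upstream probe: cttacaacttcttccgccctgacaatgagg

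Against the reference organs, the cord was rich in the messages of glycolysis and poor in those of the TCA cycle. Of the 15 glycolysis genes 14 had a mean ratio above the reference over the 16 arrays, with a median log2 ratio of 1.08, and 5 of the 20 TCA cycle genes did, with a median of -0.36. Of all probes tested 55.4% lay above the reference, with a median of 0.08. These ratios depend on what neonatal heart, kidney and liver hold and, without exchanged dyes, include any dye bias of a probe. They are given as a description with no test.

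Eno2, the neuronal enolase, stood highest at 4.03 ± 0.080 (SD, n = 16), a 16.4-fold excess in the cord channel. Pgam1, phosphoglycerate mutase, followed at 2.22 ± 0.077 (SD, n = 16), the platelet-type phosphofructokinase Pfkp at 2.14 ± 0.12 and the pyruvate kinase Pkm2 at 1.94 ± 0.19. From Pgam1 to Pkm2 the arrays of neighbours overlap, while the lowest array of Eno2 (3.88) is far above the highest of Pgam1 (2.33). Then came Pfkfb3 at 1.71, Eno1 at 1.48, Pfkm at 1.38, Ldhb at 1.08, Hk1, the first enzyme of the path, at 0.86, Pfkl at 0.86, Pgk1 at 0.82, Aldoa at 0.70, Gpi1 at 0.33 and Pfkfb2 at 0.30.

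Ldha, the lactate dehydrogenase subunit of muscle and of fast glycolysis, was the exception at -2.08 ± 0.26 (SD, n = 16), 4.23-fold below the reference. Its partner Ldhb, the subunit of heart and neurons, was at 1.08 ± 0.081 (SD, n = 16). The arrays of Ldha ran from -2.51 to -1.42 and those of Ldhb from 0.98 to 1.25, with no overlap.

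In the TCA cycle list the genes above the reference were Dlat (0.89), the E2 part of the pyruvate dehydrogenase complex, Pcx (0.74), pyruvate carboxylase, which refills the cycle and in the nervous system belongs to astrocytes, Ogdh (0.34), Mdh1 (0.28) and Suclg1 (0.13). Idh2, the mitochondrial isocitrate dehydrogenase that works with NADP, was lowest at -3.10 ± 0.12 (SD, n = 16), 8.60-fold below the reference. Suclg2 (-1.27) and Fh1 (-0.95) were next, and the other 12 lay between -0.66 (Dld) and -0.15 (Idh3g) with overlapping arrays from each gene to the next. For Dlat, Sucla2 and Aco1 the side of the reference depended on the probe: the upstream Dlat probe ran from -1.07 to -0.57, and a second Sucla2 probe ran from 1.26 to 1.57 where the brightest one ran from -0.40 to -0.07. The second, dim Aco1 probe had group means of 0.15 to 0.26, where the counted one had -0.52 to -0.23.

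**Figure D1:**
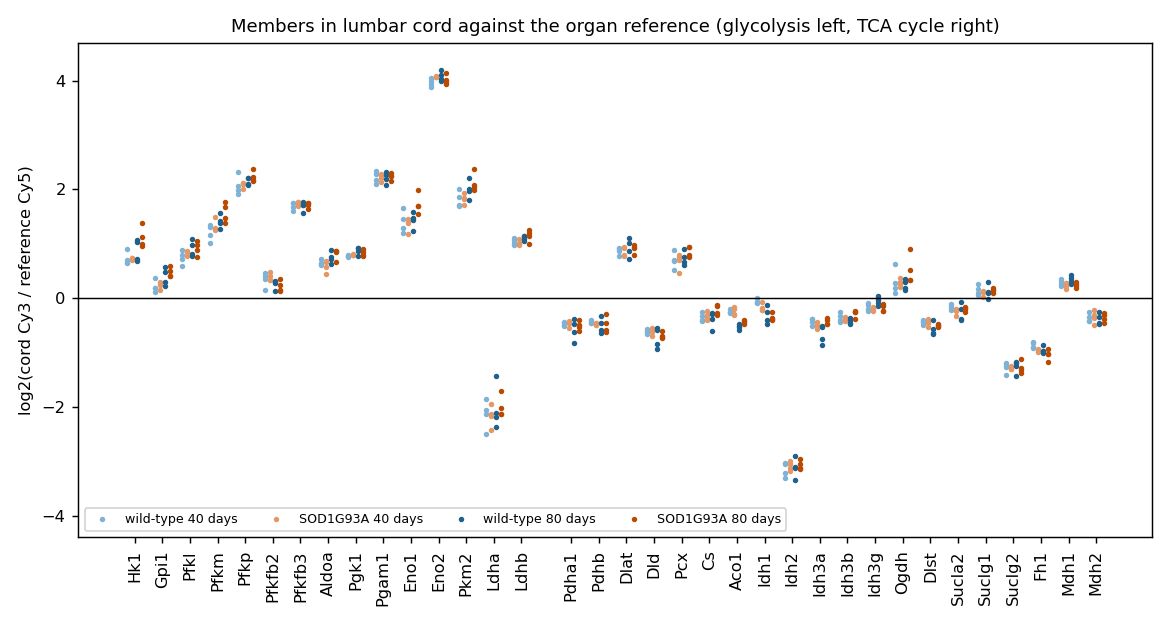
The 35 genes along the x axis, glycolysis left and the TCA cycle right, with the log2 ratio of cord (Cy3) to organ reference (Cy5) of the gene's brightest probe on the y axis and 1 point per array, coloured by group. All glycolysis genes but Ldha (mean -2.08) lie above the line of no difference, Eno2 highest at 4.03, while 15 of the 20 TCA cycle genes lie below it, Idh2 lowest at -3.10.

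At 40 days the genotypes differed little. None of the 35 genes passed a p under 0.05 from limma, where 2.44% of all probes tested did so as higher and 2.03% as lower in SOD1G93A mice. The median log2 difference between SOD1G93A and wild-type mice was 0.01 over the glycolysis genes, 9 of 15 being positive (-0.05 with median centring of each array in place of loess), and -0.02 over the TCA cycle genes, 6 of 20 being positive, against 0.00 over all probes. The differences ran from -0.12 (Idh1) to 0.12 (Pfkm). No probe of the array passed a Benjamini-Hochberg adjusted p of 0.05 in any comparison of the genotypes, so the calls below are at unadjusted p-values, all two-sided. A difference of 0.25 on the log2 scale, put into simulated log ratios at 40 days, was recovered at this threshold for 79.0% of the 200 probes that carried it. The simulated noise was drawn independently for each probe and array, and the recovery for the 35 genes themselves was not measured.

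For 3 genes the 4 arrays of one genotype nevertheless lay apart from those of the other at 40 days, as did 2.83% of all probes measured on the 8 arrays. Eno2 gave 4.05, 3.99, 3.88 and 3.93 in wild-type and 4.07, 4.07, 4.08 and 4.07 in SOD1G93A mice. The SOD1G93A arrays were nearly identical and just above the highest wild-type array, a difference of 0.10 ± 0.053 (SE; limma p = 0.0769, exact permutation p = 0.0286). The second Eno2 probe gave 0.06 with overlapping arrays (limma p = 0.354, exact permutation p = 0.229).

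Fh1, fumarate hydratase, which makes malate, gave -0.89, -0.81, -0.82 and -0.91 in wild-type and -0.96, -0.98, -0.98 and -0.94 in SOD1G93A mice. All SOD1G93A arrays were lower, by -0.10 ± 0.049 (SE; limma p = 0.0615, exact permutation p = 0.0286). At 80 days it gave -0.97, -1.01, -0.97 and -0.87 in wild-type and -1.02, -1.17, -0.94 and -1.03 in SOD1G93A mice, which overlap, with a difference of -0.08 (limma p = 0.244, exact permutation p = 0.229). Pdhb, the E1 beta subunit of pyruvate dehydrogenase, gave -0.41, -0.45, -0.46 and -0.42 against -0.46, -0.46, -0.49 and -0.50 at 40 days, a difference of -0.04 (limma p = 0.372, exact permutation p = 0.0286) that was 0.0028 in the Cy3 channel alone. For 4 arrays against 4, 0.0286 is the smallest p that the exact test can give.

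**Figure D2:**
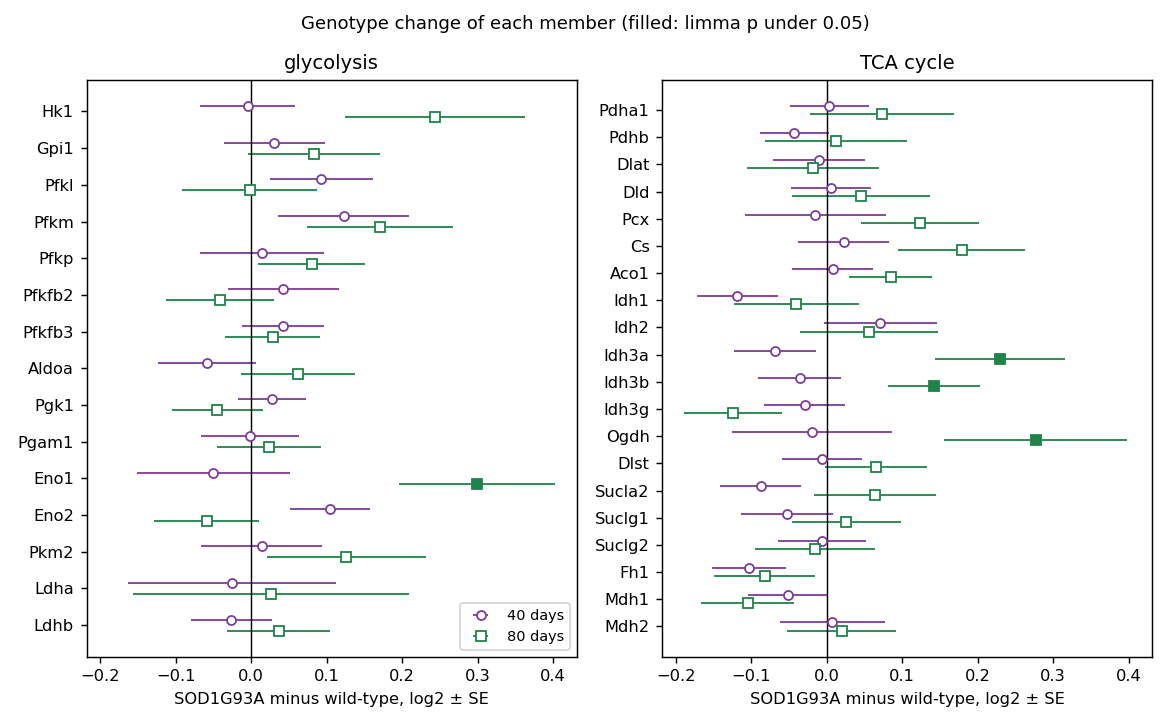
Difference between SOD1G93A and wild-type mice in log2 units on the x axis for each gene of glycolysis (left) and the TCA cycle (right), circles for 40 days and squares for 80 days, with bars of 1 SE and filled symbols where p from limma is under 0.05. No circle is filled, and the filled squares are Eno1 (0.30), Ogdh (0.28), Idh3a (0.23) and Idh3b (0.14).

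At 80 days 4 of the 35 genes were higher in SOD1G93A mice and none was lower at a p under 0.05, against 3.74% of all probes higher and 3.12% lower. The count depended on the processing, with 0 calls in the Cy3 channel alone, 1 with backgrounds as deposited (Idh3a) or with processed signals (Eno1), 2 in the authors' series matrix and 6 with the slide as a block, which lost Idh3b and gained Cs, Hk1 and Pfkm. The 4 were Eno1 of glycolysis, 1 of 15, and Idh3a, Idh3b and Ogdh, 3 of 20 in the TCA cycle. Idh3a and Idh3b are subunits of the NAD-linked isocitrate dehydrogenase and Ogdh is the E1 subunit of the 2-oxoglutarate dehydrogenase complex, the neighbouring step, and both steps release carbon dioxide and control the rate of the cycle. The medians were 0.04 over the glycolysis genes, 11 of 15 being positive, and 0.05 over the TCA cycle genes, 14 of 20 being positive, with 0.00 over all probes. The study selected Cs, Aldoa, Ogdh, Hk1 and Dlst at 80 days on these same arrays. The 4 calls come from those arrays too, so none of them is independent evidence. The same holds for the values of Cs, Hk1 and Dlst below.

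Eno1, the enolase of all tissues, gave 1.58, 1.47, 1.44 and 1.23 in wild-type and 1.56, 1.69, 1.99 and 1.69 in SOD1G93A mice at 80 days. Of the SOD1G93A arrays 3 were above every wild-type array and replicate 1 was within their range, and the difference of 0.30 ± 0.10 (SE) passed the test (limma p = 0.0158, adjusted p = 0.683, exact permutation p = 0.0571). It kept a p under 0.05 with each of the 8 arrays left out in turn. At 40 days the values were 1.46, 1.20, 1.29 and 1.65 in wild-type and 1.18, 1.46, 1.38 and 1.40 in SOD1G93A mice, with a difference of -0.05 (limma p = 0.629, exact permutation p = 0.657).

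Idh3a gave -0.86, -0.53, -0.74 and -0.51 in wild-type and -0.48, -0.37, -0.39 and -0.48 in SOD1G93A mice at 80 days, with all SOD1G93A arrays above all wild-type arrays. It was the only gene of the 35 whose counted probe lay apart at 80 days, where 4.31% of all probes did. The difference was 0.23 ± 0.086 (SE; limma p = 0.0228, adjusted p = 0.697, exact permutation p = 0.0286). Wild-type replicate 1, one of the arrays with muscle transcripts, was the lowest, and without it the difference was 0.16 and no longer passed a p under 0.05, nor did it without wild-type replicate 3 or without SOD1G93A replicate 2. At 40 days Idh3a gave -0.50, -0.43, -0.39 and -0.38 in wild-type and -0.51, -0.43, -0.47 and -0.57 in SOD1G93A mice, a difference of -0.07 (limma p = 0.239, exact permutation p = 0.114).

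Idh3b gave -0.37, -0.46, -0.48 and -0.39 in wild-type and -0.24, -0.25, -0.25 and -0.39 in SOD1G93A mice at 80 days. Here 3 SOD1G93A arrays stood above all wild-type arrays and replicate 4 fell among them, for a difference of 0.14 ± 0.061 (SE; limma p = 0.0412, adjusted p = 0.720, exact permutation p = 0.0571). With the slide as a block the p from limma was 0.0676, beside the unblocked exact permutation p of 0.0571. Of the 8 arrays, leaving out wild-type replicate 1 or SOD1G93A replicate 4 kept the call and leaving out any other lost it, with differences of 0.12 to 0.18. At 40 days it gave -0.34, -0.44, -0.39 and -0.26 against -0.42, -0.35, -0.40 and -0.40, a difference of -0.04. Idh3g, the third subunit of the same enzyme, gave values in the other direction: it gave -0.04, -0.09, 0.05 and -0.14 in wild-type and -0.10, -0.24, -0.14 and -0.24 in SOD1G93A mice at 80 days, a difference of -0.12 ± 0.065 (SE; limma p = 0.0846, exact permutation p = 0.0857).

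Ogdh gave 0.35, 0.19, 0.31 and 0.16 in wild-type and 0.33, 0.52, 0.91 and 0.34 in SOD1G93A mice at 80 days. SOD1G93A replicate 3 stood far above the rest, and the difference of 0.28 ± 0.12 (SE; limma p = 0.0451, adjusted p = 0.721, exact permutation p = 0.0857) fell to 0.15 without that array. With the 8 arrays left out in turn, the call of Ogdh was kept without wild-type replicate 1, SOD1G93A replicate 1 or SOD1G93A replicate 4 and lost without any of the other 5. The second Ogdh probe, just upstream, gave 0.25 (limma p = 0.0783, exact permutation p = 0.257) and passed with the slide as a block. At 40 days the values of Ogdh were 0.28, 0.10, 0.18 and 0.64 against 0.20, 0.36, 0.30 and 0.25, and the difference was -0.02.

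Single arrays set many of these values at once. Among the SOD1G93A mice 80 days old, replicate 3 was the highest array for 9 of the 15 glycolysis genes and replicate 4 the lowest for 9. Among the wild-type mice of that age, replicate 1 was the lowest for 9 of the 20 TCA cycle genes and replicate 4 the highest for 9. Without wild-type 80 days replicate 1 the median difference of the TCA cycle genes at 80 days was 0.01 in place of 0.05.

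**Figure D3:**
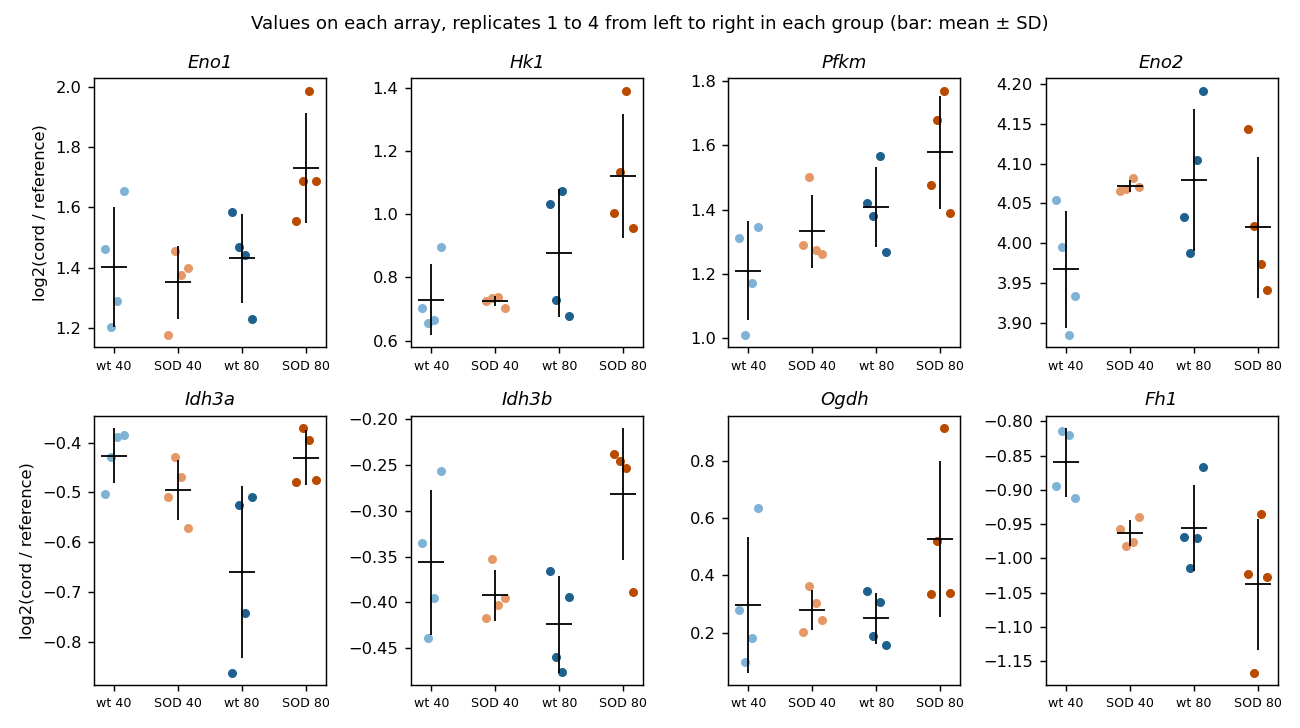
Log2 ratio of cord to reference (y axis, its range differing between panels) on each of the 4 arrays of each group (x axis; wt, wild-type; SOD, SOD1G93A; age in days) for 8 genes, with a line at the mean and a bar of 1 SD. Eno1, Idh3a, Idh3b and Ogdh are higher in SOD1G93A mice at 80 days (by 0.30, 0.23, 0.14 and 0.28), and SOD1G93A 80 days replicate 3 is the highest array of its group for Eno1, Hk1, Pfkm and Ogdh.

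The genotype difference was then compared between the ages. It differed at a p under 0.05 for 3 of the 35 genes, each being more positive at 80 days, where 3.11% of all probes differed in this direction and 3.57% in the other. For Idh3a the difference rose by 0.30 ± 0.10 (SE; limma p = 0.00948, adjusted p = 0.602, exact permutation p = 0.00490 over 4900 relabellings), and the p stayed under 0.05 with each of the 16 arrays left out in turn. Its wild-type level was the part that moved, from a mean of -0.43 at 40 days to -0.66 at 80 days, while the SOD1G93A means were -0.50 and -0.43. For Idh3b the difference rose by 0.18 ± 0.076 (SE; limma p = 0.0318, exact permutation p = 0.0233). That call was lost on leaving out any of 9 of the 16 arrays: wild-type replicates 1 and 4 and SOD1G93A replicates 1 and 3 of 40 days, and wild-type replicates 2 and 3 and SOD1G93A replicates 1, 2 and 3 of 80 days.

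For Eno1 it rose by 0.35 ± 0.15 (SE; limma p = 0.0360, exact permutation p = 0.0637), and here the SOD1G93A level moved, from 1.35 to 1.73, beside 1.40 and 1.43 in wild-type mice. Without SOD1G93A 80 days replicate 3 the difference was 0.26 and did not pass, nor did it without wild-type 80 days replicate 4, wild-type 40 days replicates 1 or 4, or SOD1G93A 40 days replicate 1, or with the slide as a block. For Eno2, the neuronal partner, the difference between the ages was -0.16 ± 0.083 (SE; limma p = 0.0667, exact permutation p = 0.0404) with the counted probe and -0.01 with the second probe, which is almost as bright (limma p = 0.892, exact permutation p = 0.874). At 80 days these probes gave differences of -0.06 and 0.05, the values of the counted one at 80 days being 4.03, 3.99, 4.10 and 4.19 in wild-type and 4.14, 4.02, 3.97 and 3.94 in SOD1G93A mice. Over the lists the median difference between the ages was 0.05 for glycolysis (10 of 15 positive) and 0.07 for the TCA cycle (15 of 20 positive), against 0.00 for all probes. With 1 array left out, that of glycolysis ran from 0.00075 without wild-type 80 days replicate 4 to 0.087 without wild-type 80 days replicate 3.

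The paralogs of the other steps did not pass the test of genotype at either age in their counted probes. Of the phosphofructokinases, the muscle form Pfkm, which is also made in the brain, gave 1.31, 1.01, 1.17 and 1.35 in wild-type and 1.29, 1.5, 1.27 and 1.26 in SOD1G93A mice at 40 days, a difference of 0.12 ± 0.087 (SE; limma p = 0.189, exact permutation p = 0.314). The highest of these arrays, SOD1G93A replicate 2, was the one with the most muscle transcripts, and without it the difference was 0.07, while without wild-type replicate 2, the lowest array and one low in muscle transcripts, it was 0.06. The study listed Pfkm, Pfkfb2 and Pfkfb3 among genes higher at 40 days on these arrays. At 80 days Pfkm gave 1.42, 1.38, 1.57 and 1.27 against 1.48, 1.68, 1.77 and 1.39, overlapping, with a difference of 0.17 (limma p = 0.109, exact permutation p = 0.171). With the slide as a block the p from limma was 0.0373, beside the unblocked exact permutation p of 0.171.

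Pfkl, the liver form, gave 0.80, 0.71, 0.58 and 0.88 in wild-type and 0.78, 0.87, 0.86 and 0.85 in SOD1G93A mice at 40 days, and 1.09, 0.82, 0.99 and 0.78 against 0.89, 0.99, 1.05 and 0.75 at 80 days, with overlapping arrays at both ages. Pfkp gave 2.06, 1.92, 1.99 and 2.31 against 2.10, 2.11, 2.11 and 2.02 at 40 days, and 2.08, 2.22, 2.22 and 2.10 against 2.17, 2.23, 2.38 and 2.15 at 80 days. The differences were 0.09 for Pfkl and 0.01 for Pfkp at 40 days, and 0.00 and 0.08 at 80 days.

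Ldha spread more between arrays than any other member. It gave -2.13, -2.06, -1.86 and -2.51 in wild-type and -2.42, -2.16, -2.13 and -1.94 in SOD1G93A mice at 40 days, and -2.10, -2.36, -1.42 and -2.19 against -2.01, -2.13, -2.13 and -1.71 at 80 days. Its differences were -0.03 ± 0.14 (SE) and 0.03 ± 0.18 (SE), the largest standard errors among the 35 genes. Ldhb gave 1.07, 1.02, 0.98 and 1.12 against 0.98, 1.09, 1.02 and 1.00 at 40 days, and 1.14, 1.09, 1.15 and 1.06 against 1.15, 1.20, 1.25 and 0.99 at 80 days, with differences of -0.03 ± 0.054 (SE) and 0.04 ± 0.068 (SE).

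Other probes of the same genes often gave other values. At 40 days 3 of the 61 tested probes (4.92%) had a p under 0.05, close to the 4.47% of all probes, none of them the brightest probe of its gene: Pfkp (not with the slide as a block) and Pfkfb3 higher and Dlat lower in SOD1G93A mice. At 80 days 10 of 62 did (16.1%, against 6.86% of all probes), in 10 genes, 9 higher and Pfkfb3 lower, and 4 of the 10 were the brightest probes named above. Of the 20 genes with several tested probes, 10 had probes of opposite sign at 40 days and 9 at 80 days, and in 3 and 7 genes one probe was called and another was not.

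For Pdha1, the E1 alpha subunit of pyruvate dehydrogenase, the upstream probe gave -0.78, -0.75, -0.67 and -0.73 in wild-type and -0.78, -0.85, -0.88 and -0.86 in SOD1G93A mice at 40 days. At 80 days it gave -1.24, -0.90, -0.97 and -0.91 in wild-type and -0.83, -0.80, -0.89 and -0.72 in SOD1G93A mice, all of the latter above all wild-type arrays. The differences were -0.11 (limma p = 0.0567, exact permutation p = 0.0571) and 0.19 (limma p = 0.0448, exact permutation p = 0.0286), and they differed between the ages by 0.30 ± 0.098 (SE; limma p = 0.00683, exact permutation p = 0.00122). Without wild-type 80 days replicate 1 the 80 days value was 0.12 and no longer passed, and the call was also lost without wild-type replicate 3 or SOD1G93A replicates 1, 2 or 4, while the difference between the ages passed with each array left out. The brighter Pdha1 probe gave 0.00 and 0.07 and a difference between the ages of 0.07.

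The upstream probe of Dlat gave -0.62, -0.72, -0.65 and -0.57 in wild-type and -0.70, -0.84, -0.81 and -0.90 in SOD1G93A mice at 40 days, and -1.07, -0.81, -1.01 and -0.81 against -0.78, -0.71, -0.66 and -0.85 at 80 days. It was lower by -0.17 at 40 days (limma p = 0.0175, exact permutation p = 0.0571) and higher by 0.18 at 80 days (limma p = 0.0496, exact permutation p = 0.114), which differ by 0.35 ± 0.098 (SE; limma p = 0.00270, exact permutation p = 0.00327). The 80 days call was lost with the slide as a block, and without wild-type replicates 1 or 3 or SOD1G93A replicates 1, 2 or 3, and that at 40 days without SOD1G93A replicate 4, while the difference between the ages passed with each array left out. The brighter Dlat probe gave -0.01 and -0.02. For Dld, the E3 subunit shared by the pyruvate and 2-oxoglutarate complexes, the most upstream probe (chr12:29185441-29190194, minus) gave -0.15 and 0.16, differing between the ages by 0.31 (limma p = 0.0200, exact permutation p = 0.0208), where the brightest gave 0.01 and 0.04.

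Pfkfb3, which makes the activator of phosphofructokinase, showed the opposite order in its upstream probe, a dim one. It gave 0.14, 0.13, 0.34 and 0.21 in wild-type and 0.30, 0.43, 0.48 and 0.43 in SOD1G93A mice at 40 days, and 0.22, 0.32, 0.40 and 0.43 against 0.15, 0.11, 0.29 and 0.16 at 80 days. The differences were 0.20 (limma p = 0.0116, exact permutation p = 0.0571) and -0.16 (limma p = 0.0386, exact permutation p = 0.0571), and they differed by -0.37 ± 0.093 (SE; limma p = 0.00114, exact permutation p = 0.00204). The brighter probe, nearer to the end of the gene, gave 0.04 and 0.03. A further dim probe gave 0.05 and 0.06, with no change of sign. The 80 days call of the upstream probe was kept without SOD1G93A replicate 3 or wild-type replicate 1 and lost without any of the other 6 arrays, and the difference between the ages passed with each array left out.

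Both probes of citrate synthase gave positive differences at 80 days. The brightest (chr10:127863869-127863928, plus) gave -0.60, -0.38, -0.28 and -0.29 in wild-type and -0.31, -0.27, -0.12 and -0.15 in SOD1G93A mice at 80 days, a difference of 0.18 ± 0.084 (SE; limma p = 0.0597, exact permutation p = 0.114) that was 0.11 without wild-type replicate 1. With the slide as a block its p from limma was 0.0244, beside the unblocked exact permutation p of 0.114. The other probe (chr10:127862584-127862643, plus) gave -0.49, -0.41, -0.37 and -0.34 against -0.31, -0.26, 0.02 and -0.23, with no overlap and a difference of 0.21 (limma p = 0.0257, exact permutation p = 0.0286), a call lost without wild-type replicates 1 or 2 or SOD1G93A replicate 3. At 40 days the probes gave 0.02 and -0.01. For Hk1, hexokinase, the brightest probe gave 1.03, 0.73, 1.07 and 0.68 against 1.00, 1.13, 1.39 and 0.96, a difference of 0.24 (limma p = 0.0678, exact permutation p = 0.200) that passed with the slide as a block. Of the 4 other Hk1 probes tested at 80 days, 3 gave 0.26, 0.28 and 0.33, the last with no overlap of the genotypes (limma p = 0.00771, exact permutation p = 0.0286), and a dim one gave -0.0036. Dlst, the E2 subunit of the 2-oxoglutarate complex, gave 0.07 with its brightest probe, 0.23 with a second (limma p = 0.0215, exact permutation p = 0.0571; not passed without wild-type replicates 1 or 2 or SOD1G93A replicate 3) and -0.05 with the other.

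Over all genes with probes at least 500 bases apart, the upstream probe gave the higher genotype difference in 58.2% of 4005 genes at 40 days and in 55.3% of 4037 genes at 80 days, with a median excess of 0.02 at both ages. For the difference between the ages the upstream probe was higher in 49.5% of 4181 genes, with a median of -0.0015. The part of the shift at each age in the values above was not tested.

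**Figure D4:**
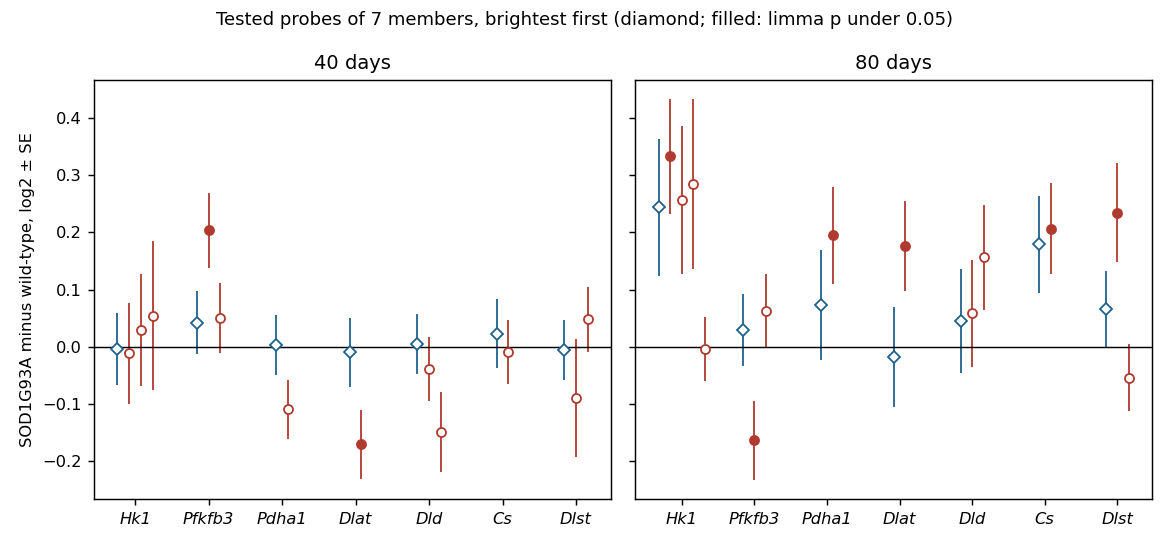
Difference between SOD1G93A and wild-type mice (log2, y axis, bars of 1 SE) at 40 days (left) and 80 days (right) for every tested probe of 7 genes (x axis), the brightest probe as a diamond and the others as circles, filled where p from limma is under 0.05. The second probes of Pdha1 and Dlat lie below 0 at 40 days (-0.11 and -0.17) and above it at 80 days (0.19 and 0.18), that of Pfkfb3 does the reverse (0.20 and -0.16), and the diamonds of these genes stay within 0.08 of 0.

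Of the genes called with age, those of the glycolysis list were mostly higher and those of the TCA cycle list lower at 80 days. In SOD1G93A mice the latter were only Aco1 and Idh1, both cytosolic enzymes. In wild-type mice Gpi1 and Pfkl were higher at 80 than at 40 days, 2 of 15 glycolysis genes with none lower, and Aco1, Idh1, Idh3a and Dlst were lower, 4 of 20 TCA cycle genes with none higher. Of all probes 6.78% were higher and 8.29% lower in this comparison. The median change with age was 0.10 over the glycolysis genes (12 of 15 positive; 0.00 with median centring in place of loess) and -0.06 over the TCA cycle genes (6 of 20 positive), with 0.01 over all probes. With the slide as a block the calls of Gpi1, Pfkl and Dlst were lost.

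In SOD1G93A mice 7 of 15 glycolysis genes were higher at 80 days (Hk1, Gpi1, Pfkm, Aldoa, Eno1, Pkm2 and Ldhb) and 1 was lower (Pfkfb2), against 8.64% of all probes higher and 8.28% lower. Of the TCA cycle genes Aco1 and Idh1 were lower and none was higher. In the Cy3 channel alone 3 glycolysis genes in place of 7 were higher, and with the slide as a block the call of Ldhb was lost and Cs was higher. The medians were 0.15 over the glycolysis genes (12 of 15 positive; 0.051 in the Cy3 channel alone) and 0.01 over the TCA cycle genes (12 of 20 positive), again with 0.01 over all probes. Whether a change with age differed between the genotypes is the same test as that of the genotype difference between the ages, which 3 genes passed.

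Aco1, the cytosolic aconitase that also acts as the iron regulatory protein, was the clearest of these. It gave -0.25, -0.27, -0.25 and -0.20 in wild-type mice at 40 days and -0.52, -0.47, -0.58 and -0.50 at 80 days, a change of -0.28 ± 0.049 (SE; adjusted p = 0.00703 from limma, exact permutation p = 0.0286). In SOD1G93A mice it gave -0.19, -0.16, -0.30 and -0.29 at 40 days and -0.48, -0.45, -0.41 and -0.40 at 80 days, a change of -0.20 ± 0.049 (SE; adjusted p = 0.0582 from limma, exact permutation p = 0.0286). The ages did not overlap in either genotype. Its second, dim probe gave -0.10 and -0.05. Idh1, the cytosolic isocitrate dehydrogenase, gave -0.07, -0.06, 0.00 and -0.09 at 40 days and -0.47, -0.12, -0.41 and -0.25 at 80 days in wild-type mice (a change of -0.26, adjusted p = 0.0746 from limma), and -0.19, -0.22, -0.08 and -0.21 against -0.40, -0.26, -0.39 and -0.37 in SOD1G93A mice (-0.18, adjusted p = 0.206). Both enzymes are cytosolic forms and stand outside the mitochondrial cycle.

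Among the glycolysis genes, Hk1 gave 0.73, 0.74, 0.74 and 0.70 at 40 days and 1.00, 1.13, 1.39 and 0.96 at 80 days in SOD1G93A mice, without overlap, a change of 0.40 ± 0.10 (SE; adjusted p = 0.0662 from limma, exact permutation p = 0.0286). In wild-type mice it gave 0.70, 0.66, 0.66 and 0.90 and then 1.03, 0.73, 1.07 and 0.68, which overlap, a change of 0.15 (adjusted p = 0.516 from limma). Pkm2 changed by 0.30 in SOD1G93A mice (adjusted p = 0.145 from limma) and its difference in wild-type mice was 0.18. Of the 35 genes Aco1 in wild-type mice was the only one with an adjusted p under 0.05 in its counted probe. Of all probes of the array, 347 passed in wild-type and 246 in SOD1G93A mice. The statement on Aco1 does not extend to the other probes of the 35 genes. In wild-type mice the upstream probes of Dlat, Dld, Pdha1 and Cs changed by -0.29, -0.29, -0.27 and -0.21 with age. The brightest probes of these genes changed by 0.05, -0.11, -0.10 and -0.04. Of 13 genes with probes at least 500 bases apart, the upstream probe had the higher change in wild-type mice in 5. Each age lay at its own positions on the slides. Oligodendrocyte markers were lower at 80 days for 4 of 10 genes in wild-type and 5 of 10 in SOD1G93A mice, and the microglial level, a median over 11 genes, was highest on SOD1G93A 80 days replicate 4 and wild-type 80 days replicate 3 (1.01 and 0.68 above the mean of all arrays). Their part in the changes with age was not tested.

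**Figure D5:**
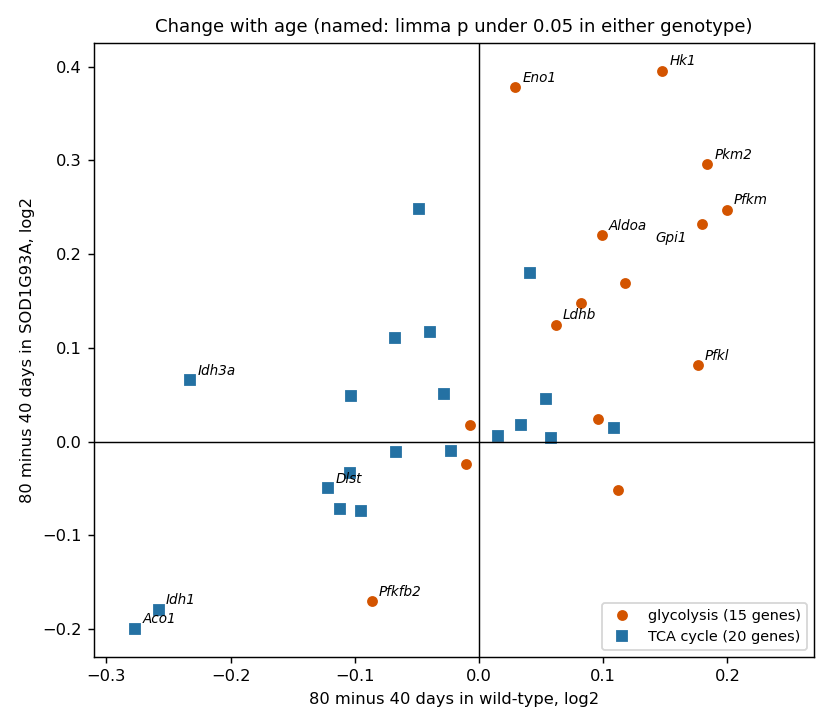
Change from 40 to 80 days (log2) in wild-type mice on the x axis and in SOD1G93A mice on the y axis for the 15 glycolysis genes (circles) and the 20 TCA cycle genes (squares), named where p from limma is under 0.05 in either genotype. Most circles lie at the upper right, with medians of 0.10 and 0.15, while Aco1 (-0.28 and -0.20) and Idh1 (-0.26 and -0.18) lie in the lower left and Idh3a (-0.23 and 0.07) in the upper left.

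Few of the neighbouring genes of these pathways passed the test of genotype. None of the 10 other glycolytic enzymes tested at 40 days and the 11 at 80 days, the 6 glucose and lactate transporters, the 8 genes of pyruvate entry and its control or the 10 genes of the malate-aspartate and citrate exchange had a p under 0.05 at either age. Of the 5 other TCA cycle enzymes Sdhc, a membrane anchor of succinate dehydrogenase, was higher in SOD1G93A mice at 80 days by 0.20 ± 0.055 (SE; limma p = 0.00438, exact permutation p = 0.0286), with a difference of -0.13 at 40 days. These differed between the ages by 0.32 ± 0.072 (SE; adjusted p = 0.543 from limma), a call at the unadjusted threshold. Of 6 genes of the pentose phosphate pathway Rpe was lower at 40 days by -0.14 (limma p = 0.0232, exact permutation p = 0.0286). Tkt, transketolase, gave -0.16 at 40 days (limma p = 0.105, exact permutation p = 0.229) and 0.31 at 80 days (limma p = 0.0588, exact permutation p = 0.0571), more than any of the 35 genes' counted probes, and differed between the ages by 0.47 ± 0.18 (SE; adjusted p = 0.711 from limma), again a call at the unadjusted threshold. The study lists Tkt at both ages on these arrays. Of 9 genes of glycogen metabolism Pygb, the brain form of glycogen phosphorylase, was higher at 80 days by 0.27 (limma p = 0.0251, exact permutation p = 0.0571). Ugp2 of the same list differed between the ages by 0.21 ± 0.088 (SE; adjusted p = 0.715 from limma), also a call at the unadjusted threshold. With 1 call for each comparison in lists of 5 to 9 genes, these counts are read beside 3.74% of all probes higher at 80 days, 2.03% lower at 40 days and 3.11% with a difference rising between the ages.

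The stretch of 250 bases before a single listed transcription start of each gene was searched, in RefSeq sequence of the GRCm38.p6 build. Any other starts of a gene were not searched. The search was for ACGTG alone, on both strands, a form of the core letters that hypoxia-inducible factors are known to bind. GCGTG was not searched for, and it occurs in the Ldhb stretch below. A count of 0 therefore means no ACGTG and does not show that such a core is absent. ACGTG was found in 6 of 15 glycolysis genes (40.0%) and in 5 of the 19 TCA cycle genes with an entry (26.3%). Of 27025 promoters 16.6% held it. Ldha and Ldhb, which lie on opposite sides of the reference, are shown because Ldha held 5 matches to ACGTG and Ldhb 0, a palindromic CACGTG counting once on each strand. Eno2, the highest against the reference, and Pfkp, Pkm2, Eno1, Hk1, Pfkl, Aldoa and Gpi1 also held 0. The other glycolysis genes with a match, Pfkm, Pfkfb2, Pfkfb3, Pgk1 and Pgam1, lay above the reference. A link between matches and level was not tested. Capitals mark the matches, which describe the letters and not a site in use. The stretches lie at chr7:46845554-46845803 (plus) for Ldha and at chr6:142507958-142508207 (minus) for Ldhb.
Ldha: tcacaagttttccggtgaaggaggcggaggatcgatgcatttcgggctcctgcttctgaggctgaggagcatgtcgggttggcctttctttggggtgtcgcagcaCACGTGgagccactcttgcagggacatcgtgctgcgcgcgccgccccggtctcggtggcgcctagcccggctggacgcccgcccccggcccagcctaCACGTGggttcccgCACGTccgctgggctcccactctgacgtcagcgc
Ldhb: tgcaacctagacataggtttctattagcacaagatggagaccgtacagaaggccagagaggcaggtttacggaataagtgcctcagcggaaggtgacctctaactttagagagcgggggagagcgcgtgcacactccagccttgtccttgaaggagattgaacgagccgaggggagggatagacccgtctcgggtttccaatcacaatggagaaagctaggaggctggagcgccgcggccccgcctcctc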

How the data were processed

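Cord RNA (Cy3) and reference RNA (Cy5) were read on 16 whole mouse genome arrays of 45018 spots. The authors extracted spot signals with Agilent Feature Extraction (9.5.3.1 per the file headers), and these intensity values on a linear scale were deposited without normalization, with local backgrounds and the software's own processed signals. The log2 values of the deposited series matrix, normalized by the authors for each age apart, were used as an alternative.

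From the intensity values, log2 ratios of Cy3 to Cy5 were made in R 4.3.3 with limma 3.58.1. Local backgrounds of spots lying over 20 units below them were reset to the array's median background, a choice made after earlier values had been seen. Normexp correction with an offset of 50 and loess within arrays followed. Control spots and outlier spots were left out and the spots of a probe were averaged. Log ratios of dim probes are drawn toward that of the offset. Tests took probes that Feature Extraction marked as well above background in Cy3 on 3 or 4 arrays of some group. Genotypes were compared with lmFit and eBayes on the 8 arrays of an age, and ages and the difference between ages on all 16. A p under 0.05 without adjustment, the threshold of the authors' methods, made a call. Exact permutation tests used 70 relabellings within an age and 4900 over both. The number of arrays limits the precision. The limma fits, but not the steps before them, were tested on simulated log ratios.

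Values per array were given for genes called in a genotype comparison or the difference between ages, for genes whose genotypes did not overlap, and for paralogs. Others were named where their probes differed in sign or call, where the study had picked them, or where a change with age or a position in the order of ratios stood out after the values were seen. The members, lists, tests and alternatives were chosen with earlier results of these data known. Replicate numbers pair the arrays by the shared slide, as the file headers show. Correlations of same-numbered arrays' deviations from their group means ran from -0.14 to 0.23 over 24 pairs, with a median of 0.0027. Between the ages in SOD1G93A mice the same-numbered pairs ran from 0.090 to 0.23 (median 0.16), against a median of -0.054 for other pairs. Position on the slide and group cannot be told apart. One marker gene is not reported here.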

Additional observations from a re-analysis of the deposited data

Results flagged for a closer look

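Of 60 groups of 4 arrays checked, 3 held an array far from the others, where chance gives about 1 in 20. The check covered the counted probes of genes called or lying apart by genotype and of the paralogs, and the median level of each list. Hk1, Cs, Aco1, Idh1 and all second probes were not checked. Idh3b was at -0.39 on SOD1G93A 80 days replicate 4, the nearest array of its group being at -0.25. Pfkm was at 1.5 on SOD1G93A 40 days replicate 2, the array with the most skeletal muscle transcripts, with the nearest array at 1.29. Pfkp was at 2.02 on SOD1G93A 40 days replicate 4, an array with reset backgrounds, with the nearest at 2.10.

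The genotype difference was larger at 80 than at 40 days, by limma's test of that difference, for Eno1 (by 0.35), Idh3a (by 0.30) and Idh3b (by 0.18). At unadjusted p-values 3.11% of all probes differed between the ages in this direction, and 3 of the 35 genes did. For Idh3a the wild-type arrays moved with age, and for Eno1 the SOD1G93A arrays.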

How the results depend on the processing

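The number of genes called at 40 days, 0, became 3 without background subtraction (1 higher, 2 lower), 2 in the authors' series matrix, and 1 with median centring, the Cy3 channel alone, no filter on dim probes, or array weights. At 80 days the 4 calls, all higher, became 1 with backgrounds as deposited or processed signals, 0 in the Cy3 channel alone, 2 in the series matrix and 7 (6 higher, 1 lower) with the spread estimated on 16 arrays. The 3 differences between the ages became 0 with processed signals, 7 with median centring and 5 without the arrays high in muscle transcripts. With age, the 6 calls in wild-type mice became 3 with the replicate block, which gave 0, 6, 2 and 10 in the other comparisons, and 3 without the arrays with reset backgrounds. The 10 calls in SOD1G93A mice (7 higher, 3 lower) became 6 (3 and 3) in the Cy3 channel alone. Both sets of left out arrays were chosen after seeing the data. The change with age was not run in the series matrix, whose ages were normalized apart.

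Median centring gave medians of -0.053 (glycolysis) and -0.084 (TCA cycle) at 40 days, 0.11 (TCA cycle) at 80 days, 0.17 and 0.18 for the difference between the ages, and 0.0032 and -0.14 for age in wild-type mice. The Cy3 channel alone gave 0.018 for the TCA cycle's difference between the ages and 0.051 for glycolysis with age in SOD1G93A mice. At 80 days the glycolysis median was 0.10 in the series matrix and 0.099 without the arrays high in muscle transcripts, which also gave 0.062 for the TCA cycle with age in SOD1G93A mice.

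With each array left out in turn, the calls ran from 0 to 2 at 40 days, 1 to 6 at 80 days, 1 to 3 for the difference between the ages, 3 to 13 with age in wild-type mice (13 without wild-type 80 days replicate 4) and 7 to 12 in SOD1G93A mice. At 80 days 1 call was left without SOD1G93A replicate 2, and 2 without replicate 3 or wild-type replicate 2. The medians at 80 days ran from 0.031 to 0.10 for glycolysis and 0.0065 to 0.085 for the TCA cycle, and the TCA cycle's difference between the ages from 0.026 to 0.099.

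Signs turned for small differences. At 40 days these were Pdhb in Cy3 alone (0.0028), Pfkp with backgrounds as deposited (-0.0033), median centring (-0.051) and the series matrix (-0.0016), Ldhb without subtraction (0.012), Eno1 with processed signals (0.0022) and Ldha as the mean of probes (0.014). At 80 days Pfkl turned without subtraction (0.016), with processed signals (0.011), median centring (0.037), Cy3 alone (0.017), the series matrix (0.044), array weights (0.060), and without muscle-high (0.10) or reset (0.054) arrays. Eno2 turned in the series matrix (0.043), Pfkp as the mean of probes (-0.0052), and Ldha as the mean of probes (-0.040) and without muscle-high (-0.078) or reset (-0.070) arrays. Leaving out 1 array turned Ldha (-0.15 to 0.068), Pfkp (-0.037 to 0.095) and Eno1 (-0.12 to 0.034) at 40 days, and Ldha (-0.088 to 0.22) and Pfkl (-0.047 to 0.055) at 80 days. None of these differences was called, and the causes were not tested. With 4 arrays a group, differences near their standard error are not resolved.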
